A study of Mus musculus with 2 samples.

Results

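Interferon-stimulated genes are transcribed when a cell senses interferon, and 30 of them were followed here through irradiated mouse intestine. The members were chosen by symbol from a list of commonly used interferon-stimulated genes, and all 30 were found among the 54658 gene symbols of each section. The list spans the ISG15 system, the IFIT and OAS families, the transcription factors of the pathway, nucleic acid sensors, other antiviral effectors, the IFI27 family, chemokines, a guanylate-binding protein and immunoproteasome subunits. Every member had at least 200 counts over both sections together, so all 30 enter the comparison of whole sections. Within 1 section or 1 kind of square some fall under 200 counts, and counts of members there are given over those that reach it.

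Type I interferons (alpha and beta) and type III interferons (lambda) bind different receptors but both lead, through JAK kinases, to a complex with STAT2 and IRF9 that binds the interferon-stimulated response element. Interferon gamma acts instead through gamma-activated sites and induces IRF1, chemokines, guanylate-binding proteins and the immunoproteasome. In the intestine the epithelium responds mainly to type III interferon, and the cells of the lamina propria mainly to type I. Cells can also induce such genes after DNA damage, when nucleic acid in the cytosol is sensed.

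Intestine of mice labelled Dpf2 KO and of mice labelled WT was compared, 1 section each, and both had received X-rays at 10 Gy. The Dpf2 protein belongs to the chromatin remodelling complex BAF. Fresh frozen tissue was cut at 10 µm onto an array of barcoded capture positions. Strain, age, time after irradiation, stretch of gut, the number of animals, the deleted part of Dpf2 and the cells that lost it are not stated in the sources used here, and an unirradiated group was not analysed here. The sections are called KO-labelled and WT-labelled. The KO-labelled section has 88056 barcodes and 89754886 counts in all (median 932 per barcode), and the WT-labelled section has 50970 barcodes and 39824941 counts (median 721). The 45557 barcode names found in both sections are addresses on the array. Values are CPM, a gene's summed counts scaled to the total of its section or squares. There is 1 section per genotype, so no test between genotypes is possible, and the 95% intervals in brackets cover counting error only. In such sums, fewer cells of a type and less RNA per cell cannot be told apart.

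The level of Dpf2 did not separate the labels. Dpf2 had 2333 counts (26.0 CPM) in the KO-labelled section, against 940 counts (23.6 CPM) in the WT-labelled section, a log2 ratio of 0.14 (0.03 to 0.25). Counts outside a deleted part would remain, so this does not settle the genotype, and the sections are named by their labels throughout. The sections also differed widely in make-up. The 15 enterocyte markers, such as the fatty acid carriers Fabp1 and Fabp2, summed to 35701 CPM in the KO-labelled section and 504 CPM in the WT-labelled section. The 9 Paneth cell markers, such as defensins, summed to 5810 CPM in the KO-labelled section and 94367 CPM in the WT-labelled section. Neutrophil markers summed to 4.96 CPM in the KO-labelled section and 566 CPM in the WT-labelled section, and macrophage markers to 174 CPM and 734 CPM in the same order. T and NK cell markers went the other way, with 86.9 CPM in the KO-labelled section and 37.1 CPM in the WT-labelled section. Any ratio between the sections given below moves together with these differences, and their part in it was not tested.

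The promoter sequences show the elements that the members share. RefSeq promoter windows of GRCm38.p6, from 250 bases before to 50 after the start site, were at hand for 24 of the 30 members. The core of the interferon-stimulated response element was searched as 2 copies of GAAA with any 2 bases between them, and the gamma-activated site as TTCNNNGAA, on both strands and with overlapping matches kept. The first was found in 14 of the 24 members (58.3%), against 3.99% of the 27025 symbols with a window. The second was found in 6 of the 24 (25.0%), against 9.55% of all symbols. The first set of stretches below is a choice from the members that hold a core. The members chosen were higher in squares rich in enterocyte markers than elsewhere in the KO-labelled section. Other members higher there, such as Oasl1, Oasl2 and Irf7, have a window without a core. Further members hold a core but had a log2 ratio below 0 there. They were Ifitm3 (-2.07), Gbp2 (-1.25), Cxcl10 (-0.47), Trim30a (-0.38) and Bst2 (-0.14), and the intervals of Cxcl10 and Bst2 include 0. Where a window holds several matches, 1 is printed. Each runs 5′ to 3′ along the strand of its gene, with the motif in capitals. They lie at chr4:156200872-156200911 (minus strand, Isg15), chr19:34640789-34640828 (plus strand, Ifit1), chr19:34602048-34602087 (minus strand, Ifit1bl1), chr12:26456548-26456587 (minus strand, Rsad2) and chr5:120777710-120777749 (minus strand, Oas3).
Isg15: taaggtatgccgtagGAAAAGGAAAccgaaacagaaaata
Ifit1: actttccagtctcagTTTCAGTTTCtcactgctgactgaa
Ifit1bl1: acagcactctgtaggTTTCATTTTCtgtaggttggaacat
Rsad2: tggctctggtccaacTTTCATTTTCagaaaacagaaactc
Oas3: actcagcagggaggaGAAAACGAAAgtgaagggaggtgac

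The window of Isg15 holds 3 overlapping matches between 78 and 57 bases before the start site, of which the first is marked. The next set is shown because these members were at least 2-fold lower in the KO-labelled section. They lie at chr8:71537578-71537617 (minus strand, Bst2), chr19:34583358-34583397 (plus strand, Ifit3), chr5:92349078-92349117 (minus strand, Cxcl10) and chr7:141010723-141010752 (minus strand, Ifitm3, within the first transcribed bases).
Bst2: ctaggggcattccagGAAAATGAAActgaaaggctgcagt
Ifit3: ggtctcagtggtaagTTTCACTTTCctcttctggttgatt
Cxcl10: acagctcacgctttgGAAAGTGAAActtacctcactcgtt
Ifitm3: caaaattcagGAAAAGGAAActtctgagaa

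The last set holds gamma-activated sites of 2 members that were at least 2-fold higher in the KO-labelled section, at chr11:53769909-53769947 (plus strand, Irf1) and chr17:34198083-34198121 (plus strand, Psmb8). It also holds the response element of Gbp2 at chr3:142620589-142620628 (plus strand), a member that was high in muscle-rich tissue.
Irf1: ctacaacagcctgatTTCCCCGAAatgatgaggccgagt
Psmb8: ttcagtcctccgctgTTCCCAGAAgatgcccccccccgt
Gbp2: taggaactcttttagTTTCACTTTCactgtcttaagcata

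**Figure D1:**
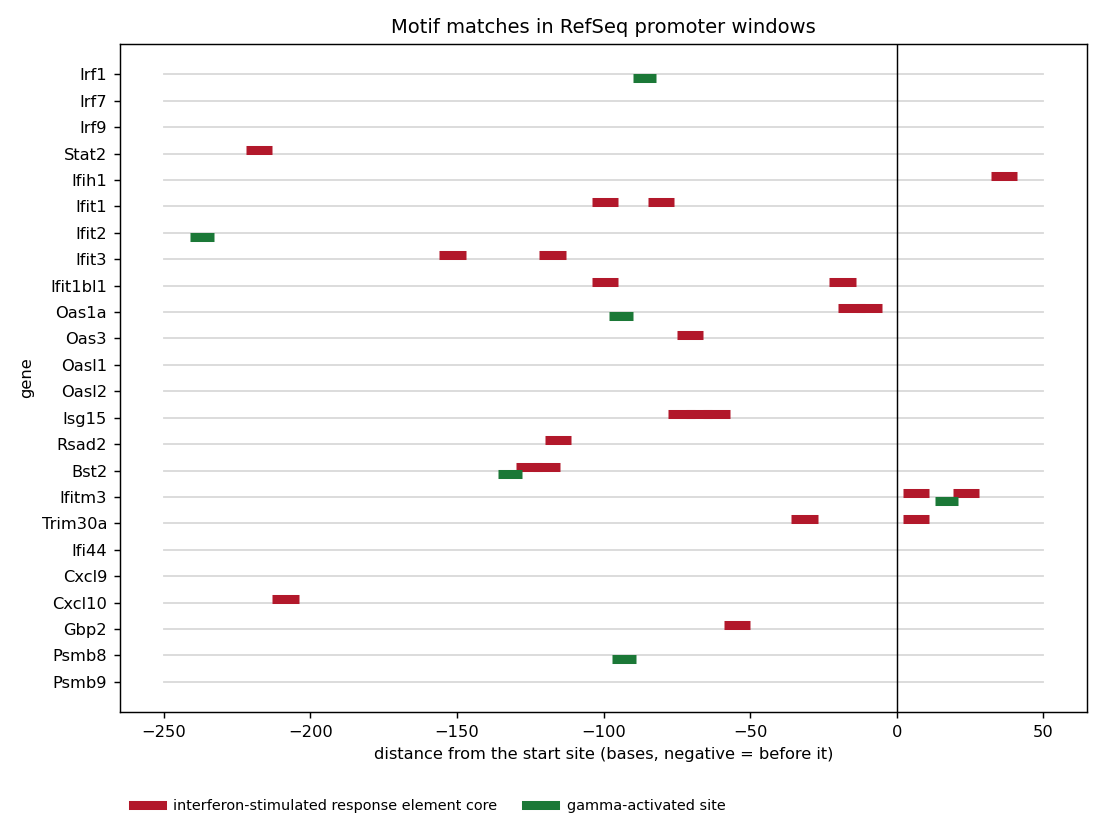
Matches of the interferon-stimulated response element core (red) and of the gamma-activated site (green) in the promoter windows of the 24 members that have one, by distance from the start site in bases. Of the members, 14 hold the first and 6 the second.

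Of the members at least 2-fold higher in the KO-labelled section, 4 have a window, and 1 of these (Ifit1bl1) holds a response element core while 2 (Irf1 and Psmb8) hold a gamma-activated site. Of the members at least 2-fold lower, 4 have a window, and all 4 (Ifit3, Bst2, Cxcl10 and Ifitm3) hold a response element core. A gamma-activated site was found in 2 of these 4 as well (Bst2 and Ifitm3). Of the 18 members within 2-fold, 16 have a window, 9 hold a core and 2 hold a gamma-activated site. A match describes the letters of a window and is no evidence that a factor binds there.

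Between the sections, the interferon-stimulated genes differed in both directions. Of the 30 members, 6 (20%) were higher by 2-fold or more in the KO-labelled section, against 15.7% of the 14516 genes that reached 200 counts. The 6 (20%) that were at least 2-fold lower compare with 19.7% of those genes, so both shares lie near the background. The members' median log2 ratio was -0.26, beside -0.18 over all these genes. For the spread within a section, its barcodes were divided by position into 4 parts. All 4 parts of the KO-labelled section lay above those of the WT-labelled section for 9 members (30%, against 31.6% of all genes), and all 4 lay below for 12 members (40%, against 42.8%). The parts of 1 section are not replicates.

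Among the transcription factors, Irf1 stood apart. Irf1, which interferon gamma induces and which drives immunoproteasome and antigen presentation genes, had 174.6 CPM (171.9 to 177.4) in the KO-labelled section, against 40.2 CPM (38.2 to 42.2) in the WT-labelled section, a log2 ratio of 2.12 (2.05 to 2.20). The gene lies at chr11:53770014-53778374 (GRCm38.p6). Its 4 parts ranged over 164.3 to 180.3 CPM in the KO-labelled section and 34.4 to 43.1 CPM in the WT-labelled section, and these ranges do not meet. Irf7, which amplifies the transcription of type I interferon, was lower, with 124.4 CPM in the KO-labelled section, against 192.3 CPM in the WT-labelled section (log2 ratio -0.63, -0.67 to -0.59). Irf9 had 64.2 CPM in the KO-labelled section and 55.4 CPM in the WT-labelled section. Stat2 had 27.9 CPM in the KO-labelled section and 22.0 CPM in the WT-labelled section. The log2 ratios of these partners in one complex were 0.21 and 0.34.

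The immunoproteasome subunits were higher in the KO-labelled section, as Irf1 was. They replace the standard catalytic subunits of the proteasome and shape the peptides presented on MHC class I. Psmb8, at chr17:34198195-34201454, had 188 CPM in the KO-labelled section, against 62.6 CPM in the WT-labelled section (log2 ratio 1.59, 1.53 to 1.65). Psmb9 had 49.3 CPM in the KO-labelled section, against 19.6 CPM in the WT-labelled section (log2 ratio 1.33, 1.22 to 1.45). In both genes the 4 parts of one section did not meet those of the other, although Psmb8 in the WT-labelled section was higher in 1 part than in the others, which stayed within 50.9 to 55.6 CPM. Gbp2, a GTPase that coats intracellular pathogens, did not follow them. It had 10.0 CPM in the KO-labelled section and 11.6 CPM in the WT-labelled section (log2 ratio -0.21, -0.38 to -0.05), with overlapping parts.

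Both nucleic acid sensors of the list were higher in the KO-labelled section. Zbp1, which binds left-handed nucleic acid and can start necroptosis, had 68.1 CPM in the KO-labelled section, against 29.7 CPM in the WT-labelled section (log2 ratio 1.20, 1.11 to 1.29). Its parts ranged over 53.5 to 81.8 CPM in the KO-labelled section and 25.6 to 34.1 CPM in the WT-labelled section. Ifih1, which encodes the double-stranded RNA sensor MDA5, had 45.2 CPM in the KO-labelled section and 26.2 CPM in the WT-labelled section (log2 ratio 0.79, 0.69 to 0.89).

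The IFIT family, whose proteins bind viral RNA and block its translation, split in all directions. Ifit3 had 9.16 CPM in the KO-labelled section, against 35.3 CPM in the WT-labelled section (log2 ratio -1.95, -2.07 to -1.82), with parts of 7.02 to 11.4 CPM and 32.1 to 37.8 CPM in the same order. Ifit1bl1 had 28.9 CPM in the KO-labelled section, against 13.9 CPM in the WT-labelled section (log2 ratio 1.06, 0.93 to 1.19). Ifit1 (log2 ratio 0.14, 0.07 to 0.22) and Ifit2 (-0.32, -0.68 to 0.05) were within 2-fold, and Ifit2 had only 177 counts in the KO-labelled section and 98 in the WT-labelled section. Ifit1bl1 and Ifit3 each have a close copy (Ifit1bl2 and Ifit3b), so the split of reads within each pair is uncertain. The same holds for Oas1a and its copy Oas1g.

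The OAS family makes or resembles the enzymes that make 2-5A, the activator of the RNA-degrading enzyme RNase L. Its summed level was 288 CPM in the KO-labelled section and 368.4 CPM in the WT-labelled section (log2 ratio -0.36). Oas2 was the member at least 2-fold apart, at 12.5 CPM in the KO-labelled section and 25.3 CPM in the WT-labelled section (log2 ratio -1.01, -1.14 to -0.89). Oas1a (-0.84) and Oasl2 (-0.40) were also lower in all 4 parts, while Oasl1 (0.08) and Oas3 (0.42) had overlapping parts. In the ISG15 system, Isg15, a ubiquitin-like modifier, had 82.6 CPM in the KO-labelled section and 101.9 CPM in the WT-labelled section (log2 ratio -0.30). Usp18, the protease that removes it and restrains the type I receptor, had 18.0 CPM in the KO-labelled section and 27.6 CPM in the WT-labelled section (-0.62). Both had overlapping parts.

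The lowest ratios belonged to membrane-bound antiviral proteins and a chemokine. Ifitm3, which hinders the fusion of viruses with endosomes, had 45.0 CPM (43.6 to 46.4) in the KO-labelled section, against 455.7 CPM (449.1 to 462.4) in the WT-labelled section. The log2 ratio of this gene, at chr7:141009590-141010744, was -3.34 (-3.39 to -3.29), with parts of 34.1 to 55.6 CPM in the KO-labelled section and 405.9 to 550.9 CPM in the WT-labelled section. Bst2 (tetherin), which holds budding viruses at the cell surface, had 28.1 CPM in the KO-labelled section, against 167.3 CPM in the WT-labelled section (log2 ratio -2.57, -2.64 to -2.51). Cxcl10, a ligand of CXCR3, a chemokine receptor of T cells, had 2.30 CPM in the KO-labelled section, against 15.6 CPM in the WT-labelled section (log2 ratio -2.77, -3.003 to -2.54), where 1 part held 24.2 CPM and the other 3 between 12.4 and 13.6. Cxcl9, which binds the same receptor, had 112 counts in the KO-labelled section and 90 in the WT-labelled section (log2 ratio -0.86, -1.27 to -0.44).

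Mx1, an antiviral GTPase that RefSeq annotates as a transcribed pseudogene in the C57BL/6J reference, had 5.30 CPM in the KO-labelled section, against 18.4 CPM in the WT-labelled section (log2 ratio -1.79, -1.96 to -1.62). Rsad2 (viperin), which makes a nucleotide that stops viral RNA synthesis, had 25.4 CPM in the KO-labelled section, against 48.3 CPM in the WT-labelled section (-0.93). Ifi44 had 16.1 CPM in the KO-labelled section, against 28.4 CPM in the WT-labelled section (-0.82). None of the 6 other antiviral effectors had a log2 ratio above 0.

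Ifi27l2b and Ifi27, small hydrophobic proteins of the IFI27 family, were both higher in the KO-labelled section. Ifi27l2b, at chr12:103450898-103457223, had 952.9 CPM (946.5 to 959.3) in the KO-labelled section, against 243.1 CPM (238.2 to 248.0) in the WT-labelled section, a log2 ratio of 1.97 (lower bound 1.94). Its parts ranged over 756 to 1121 CPM in the KO-labelled section and 222.1 to 274.8 CPM in the WT-labelled section. Ifi27 had 82.1 CPM in the KO-labelled section and 42.2 CPM in the WT-labelled section (0.96), and in the annotation it overlaps a neighbour of the same family, Ifi27l2a.

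**Figure D2:**
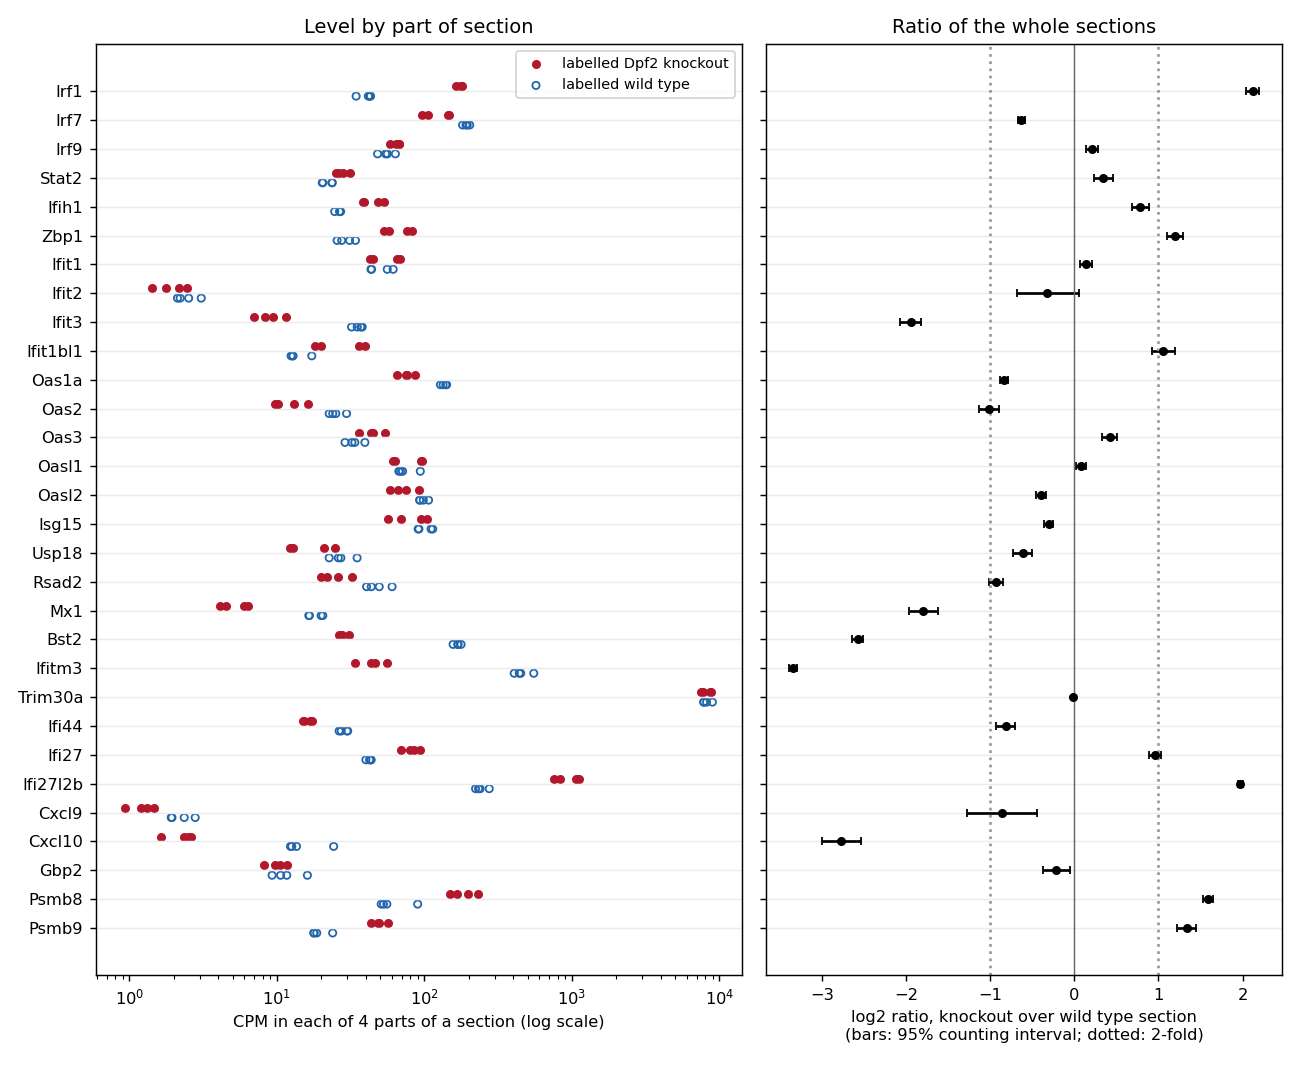
Left, the level of each member in CPM (log scale) in the 4 parts of the KO-labelled section (filled red) and of the WT-labelled section (open blue). Right, the log2 ratio of the whole sections with its 95% counting interval, with dotted lines at 2-fold. Irf1 has the highest ratio (2.12) and Ifitm3 the lowest (-3.34).

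Trim30a needs to be read apart from the rest. It encodes a TRIM-family protein that restrains inflammatory signalling in the mouse, and it took 77.3% of all member counts in the KO-labelled section and 79.8% in the WT-labelled section. Its level was 8145 CPM in the KO-labelled section and 8200 CPM in the WT-labelled section (log2 ratio -0.01), which ranked it 9th and 13th of all genes of those sections. Its coefficient of variation across tiles was 0.122 in the KO-labelled section and 0.190 in the WT-labelled section, while the genes nearest to it in abundance had medians of 0.177 and 0.412. RefSeq places a small nuclear RNA gene, Gm25405, inside the Trim30a interval on chromosome 7, and whether its reads were counted as Trim30a was not tested. Trim30a also has close copies (Trim30b, Trim30c and Trim30d), so the split of reads among them is uncertain. Over all 30 members the summed level was 10539 CPM in the KO-labelled section and 10281 CPM in the WT-labelled section (log2 ratio 0.04). Without Trim30a, a choice made after its values were seen, it was 2395 CPM in the KO-labelled section and 2081 CPM in the WT-labelled section (0.20). Ifi27l2b made up 39.8% of that remainder in the KO-labelled section and 11.7% in the WT-labelled section. Without it too, the sum was 1442 CPM in the KO-labelled section and 1838 CPM in the WT-labelled section (-0.35), so the direction of the sum is set by 1 or 2 genes.

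Within each section the members were then placed by tissue compartment. The array was cut into squares (side 20 position units), kept where 10 or more barcodes fell inside, giving 2100 squares in the KO-labelled section and 1305 in the WT-labelled section. For each marker list, the 10% of squares with the highest share of its counts (210 squares in the KO-labelled section and 130 in the WT-labelled section) was set against all other squares of the same section. A square can hold several cell types, and no list holds a member. The squares named alike are not alike between sections. Enterocyte markers took 6.35% of counts in the villus-rich squares of the KO-labelled section and 0.296% in those of the WT-labelled section. Paneth cell markers took 1.94% of counts in the crypt base-rich squares of the KO-labelled section and 19.7% in those of the WT-labelled section, and B cell markers 0.0091% and 0.116% in the follicle-rich squares. In the KO-labelled section 76 of the 210 crypt base-rich squares were also muscle-rich.

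In the villus-rich squares of the KO-labelled section 22 of the 30 members were above the other squares and 8 below. There 6 of the 28 members that reached 200 counts were enriched by 2-fold or more, against 1.16% of 13136 genes. The median over all 30 members was a log2 ratio of 0.64, beside -0.41 over all genes. Isg15 had 171.6 CPM (163.8 to 179.6) in the villus-rich squares and 70.1 CPM in the others, a log2 ratio of 1.29 (1.21 to 1.37). The other 5 were Ifit1bl1 (1.31), Usp18 (1.31), Oasl1 (1.26), Ifit1 (1.07) and Oas2 (1.07). Oasl2, Ifih1, Irf7, Ifi27l2b, Oas3, Zbp1 and Psmb8 followed, at 0.97 to 0.80. T and NK cell markers summed to 135 CPM in these villus-rich squares and 86.9 CPM over the whole KO-labelled section, and their part in the enrichment was not tested.

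The villus-rich squares of the WT-labelled section held 3 of 28 members at 2-fold or more over the other squares, against 1.12% of 11643 genes. These were Ifit1bl1 (1.51, 1.22 to 1.79), Oasl1 (1.12, 0.99 to 1.25) and Usp18 (1.03, 0.80 to 1.25), all of them also among the 6 of the other section. These squares are far from pure villus, with Paneth cell markers at 62401 CPM and enterocyte markers at 2957 CPM, and 25 of the 130 were also follicle-rich and 19 proliferating crypt-rich. Plasmacytoid dendritic cell markers summed to 301 CPM there and 213 CPM over the whole WT-labelled section, and plasma cell markers to 4860 and 3860 CPM. Their part in the enrichment was not tested. Isg15 came next, with 179.7 CPM in the villus-rich squares and 92.9 CPM in the others (0.95). The median over all 30 members was 0.30, beside 0.07 over all genes, and 0 of 28 were at least 2-fold lower (background 0.61%). Ifit1, at 1.07 in the KO-labelled section, was at 0.20 (-0.01 to 0.40) in the WT-labelled section, and Irf7 was at 0.92 and 0.10 in the same order. Whether these enrichments differ between genotypes could not be tested.

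Against epithelial squares alone the enrichments were smaller. When the villus-rich squares were set only against other squares with a pan-epithelial marker share at or above the median, a comparison added after seeing the data, the median of the members was 0.42 in the KO-labelled section and 0.19 in the WT-labelled section. Isg15 was then at 0.86 in the KO-labelled section and 0.60 in the WT-labelled section, and of the 11 enrichments or depletions of 2-fold or more only 2 stayed past 2-fold. The median and the 2-fold shares over all genes were not counted for this comparison. Whether the members stand out from other genes in it can therefore not be told.

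Ifitm3 and Gbp2 were the members at least 2-fold lower in villus-rich squares of the KO-labelled section. In the KO-labelled section Ifitm3 had 11.7 CPM (9.75 to 14.0) in villus-rich squares and 49.3 CPM in the others (log2 ratio -2.07, -2.34 to -1.81), and Gbp2 had 4.54 CPM and 10.8 CPM in the same order (-1.25, -1.70 to -0.83). These 2 of 28 members compare with 21.6% of all genes at least 2-fold lower there. The other 6 members below 0 were Cxcl9 (-0.61), Cxcl10 (-0.47), Trim30a (-0.38), Ifit2 (-0.25), Ifi44 (-0.23) and Bst2 (-0.14). Of these, Trim30a alone had a counting interval that leaves out 0. Trim30a, Ifit2, Ifi44 and Bst2 lay above the median of -0.41 over all genes there. In muscle-rich squares both Ifitm3 and Gbp2 were higher. Gbp2 reached 29.2 CPM there in the KO-labelled section (1.90, 1.69 to 2.11) and 27.8 CPM in the WT-labelled section (1.48, 1.14 to 1.81). Ifitm3 reached 130.1 CPM in the KO-labelled section (1.89, 1.79 to 1.99) and 783 CPM in the WT-labelled section (0.89, 0.83 to 0.95). Background shares at least 2-fold higher in muscle-rich squares were 10.8% in the KO-labelled section and 4.16% in the WT-labelled section.

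In crypt base-rich and muscle-rich squares most members were lower than in the other squares, in both sections. In the WT-labelled section the medians over all genes were lower there too, and those of the members lay near them. In the crypt base-rich squares the median log2 ratio was -0.50 in the KO-labelled section and -0.66 in the WT-labelled section, beside 0.19 and -0.52 over all genes. At least 2-fold lower were 9 of 28 members in the KO-labelled section (background 0.959%) and 5 of 28 in the WT-labelled section (background 4.78%). Isg15 (-1.49 and -1.11), Ifit1bl1 (-1.43 and -1.08) and Rsad2 (-1.08 and -1.03) were among these lower members in both sections, with the KO-labelled section given first. At least 2-fold higher were 2 of 28, Ifitm3 (1.29) and Gbp2 (1.19), in the KO-labelled section (background 5.98%) and 0 of 28 in the WT-labelled section (background 0.386%). In muscle-rich squares the medians were -0.55 in the KO-labelled section and -0.37 in the WT-labelled section, beside 0.21 and -0.25 over all genes. There 8 of 28 members were at least 2-fold lower in the KO-labelled section (background 1.55%) and 5 of 28 in the WT-labelled section (background 6.25%).

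In the proliferating crypt-rich and follicle-rich squares the medians had opposite signs. They were -0.59 in the KO-labelled section and 0.27 in the WT-labelled section for the proliferating crypt, and -0.28 and 0.30 for the follicle in the same order. For the proliferating crypt the medians over all genes were 0.225 in the KO-labelled section and 0.22 in the WT-labelled section. For the follicle they were 0.04 and 0.08 in the same order. The members' median in the proliferating crypt-rich squares of the WT-labelled section thus lay near that of all genes. The follicle-rich squares were not alike in make-up. B cell markers summed to 91.3 CPM in those of the KO-labelled section and 1158 CPM in those of the WT-labelled section. Adipocyte markers summed to 3026 and 143 CPM in the same order, and the part of this difference in the contrast was not tested. In proliferating crypt-rich squares of the KO-labelled section 4 of 28 members were at least 2-fold lower (background 1.34%), namely Isg15 (-1.17), Zbp1 (-1.06), Usp18 (-1.03) and Ifit1bl1 (-1.01), and 0 were higher (background 3.26%). None of 28 was 2-fold apart there in the WT-labelled section, against 0.189% of genes higher and 1.76% lower. In the WT-labelled section, Psmb8 had 146.9 CPM in follicle-rich squares and 55.5 CPM in the others (1.40, 1.25 to 1.55), and Psmb9 had 38.6 CPM and 18.0 CPM (1.10, 0.81 to 1.38). These 2 of 28 members compare with 2.76% of all genes, and 0 were 2-fold lower (0.223%). Psmb8 (-0.23) and Psmb9 (-0.05) were not higher in the follicle-rich squares of the KO-labelled section, where 0 of 28 members were 2-fold apart (background 0.442% higher and 0.099% lower).

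**Figure D3:**
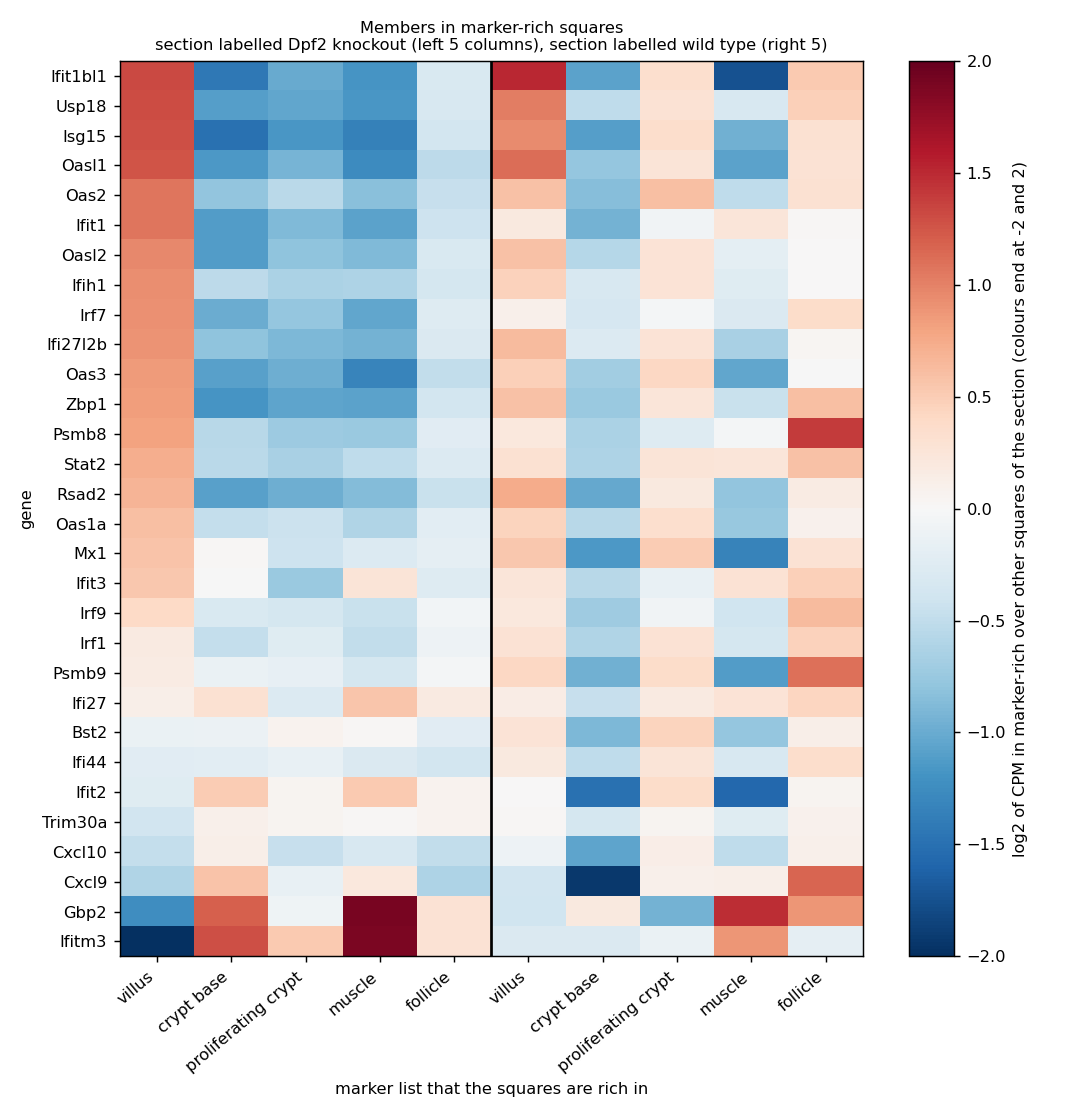
Log2 of the CPM in marker-rich squares over the CPM in the other squares of the same section, for each member (rows, ordered by the villus column of the KO-labelled section) and 5 marker lists. The left 5 columns are the KO-labelled section and the right 5 the WT-labelled section. Ifit1bl1, Usp18, Isg15 and Oasl1 lead the villus column of both, and Gbp2 and Ifitm3 lead the muscle column of both.

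The squares of each section were next ordered by enterocyte share and divided into 10 bins of equal size. The highest bin holds the villus-rich squares used above, so its values repeat theirs and are no further support. In the KO-labelled section Isg15 had 28.8 CPM in the lowest bin and 171.6 CPM in the highest (log2 ratio 2.58, 2.39 to 2.77), and it was higher than in the bin before at 8 of 9 steps. Usp18 had 6.48 and 37.6 CPM, Ifit1bl1 11.03 and 61.0 CPM, and Oasl1 30.8 and 163.2 CPM in the lowest and highest bin. Ifit1, Irf7, Ifi27l2b, Zbp1 and Psmb8 were higher at each of the 9 steps. The share of all genes higher at each step was not counted. Ifitm3 had 104.5 CPM in the lowest bin and 11.7 CPM in the highest, and Gbp2 had 20.9 and 4.54 CPM. Irf1 differed less, with 125.9 and 193.9 CPM.

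Enterocyte share spanned a far lower range in the WT-labelled section, so its bins do not match those of the KO-labelled section. Isg15 had 63.0 CPM in its lowest bin and 179.7 CPM in its highest (1.51, 1.29 to 1.74), and Ifit1bl1 had 6.97 and 33.3 CPM (2.26, 1.62 to 2.95). Oasl1 had 49.7 and 146.6 CPM (1.56, 1.31 to 1.82), and Usp18 had 22.4 and 50.9 CPM (1.19, 0.80 to 1.58). Ifi27l2b had 185.3 and 355.8 CPM and was higher at each of the 9 steps in this section too. Irf7 had 200.1 and 204.3 CPM (0.03, -0.12 to 0.18) and Ifit1 49.1 and 56.9 CPM (0.21, -0.08 to 0.51). Other members had a higher log2 ratio of the highest to the lowest bin in the WT-labelled section. That of Bst2 was -0.36 (-0.60 to -0.11) in the KO-labelled section and 0.75 (0.58 to 0.93) in the WT-labelled section. That of Cxcl10 was -0.49 (-1.48 to 0.49) and 0.96 (0.27 to 1.68) in the same order. That of Mx1 was 1.04 (0.43 to 1.68) and 1.18 (0.63 to 1.75). For Cxcl10 and Mx1 the intervals of the sections overlap. No test of these differences was possible. In the highest bins the levels of Isg15 met, at 171.6 CPM in the KO-labelled section and 179.7 CPM in the WT-labelled section, while those of Psmb8 did not, at 301.9 CPM and 71.6 CPM in the same order.

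**Figure D4:**
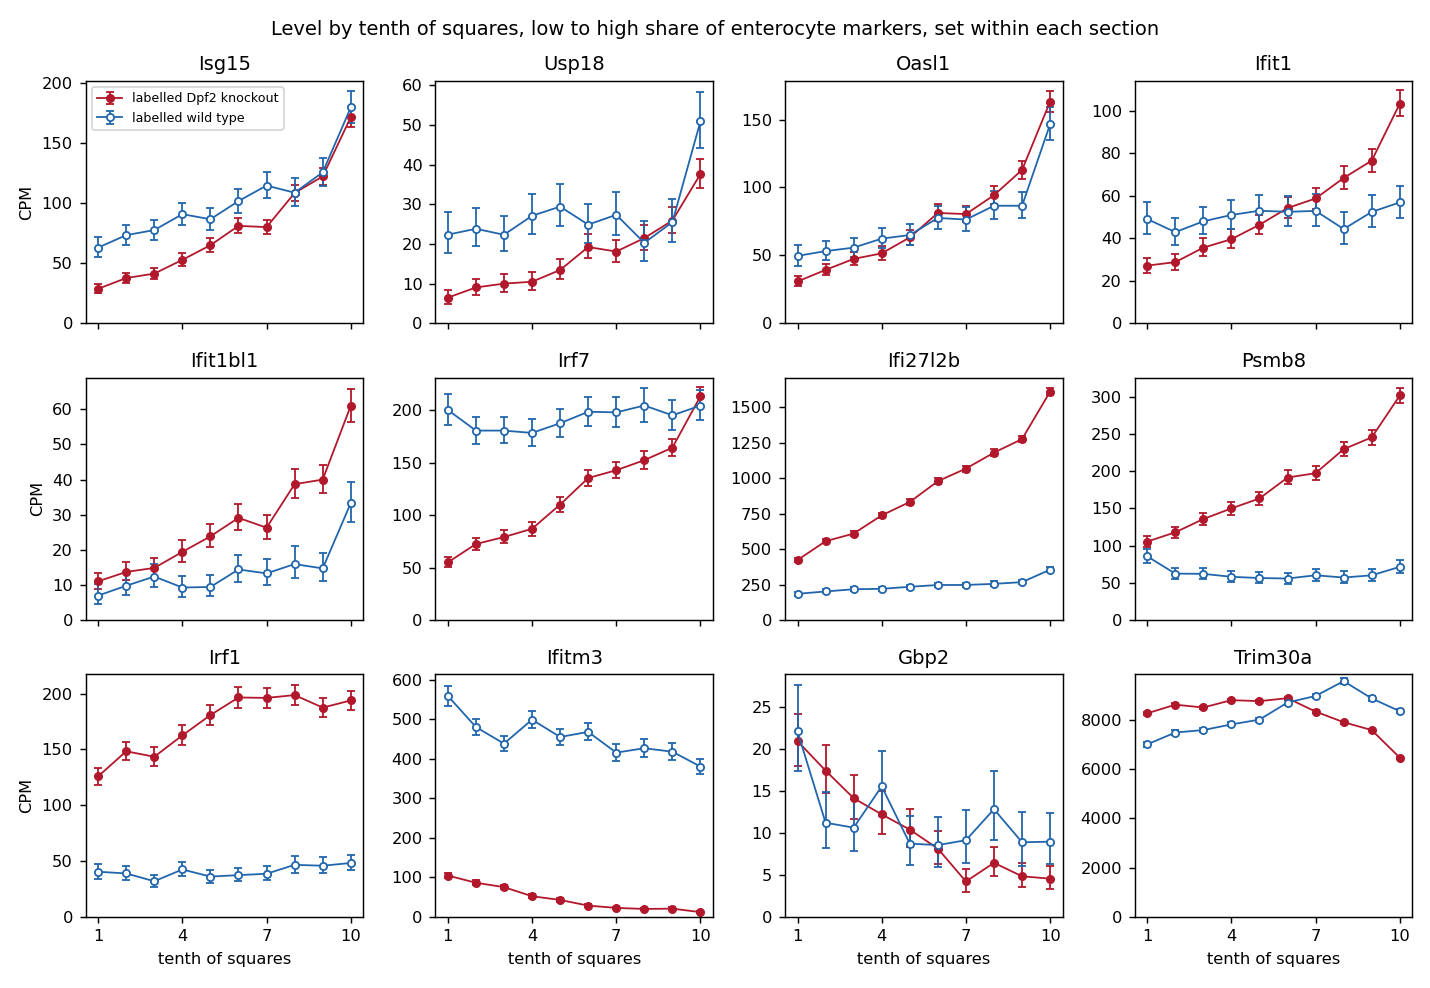
CPM of 12 members in 10 bins of squares, ordered within each section from the lowest to the highest share of enterocyte markers, in the KO-labelled section (filled red) and the WT-labelled section (open blue). Bars are 95% counting intervals. Isg15 had 171.6 CPM in the highest bin of the KO-labelled section and 179.7 CPM in that of the WT-labelled section.

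Among the squares with an enterocyte share at or above the median, villus tip and villus bottom markers were used to look along the villus, with lists added after seeing the data. In villus tip-rich squares of the KO-labelled section, Oasl1 had 199.8 CPM and 87.5 CPM in the rest of those squares (1.19, 1.11 to 1.28), and Isg15 had 192.9 and 97.0 CPM (0.99, 0.91 to 1.07). In the WT-labelled section Ifit1bl1 (1.17, 0.84 to 1.49), Usp18 (1.12, 0.87 to 1.37) and Isg15 (0.998, 0.87 to 1.12) were highest. Of 27 members that reached 200 counts, 1 was at least 2-fold higher in the KO-labelled section (background 0.873%) and 2 in the WT-labelled section (background 0.928%), and 0 were lower (background 0.595% and 0.0213%). None of 27 was 2-fold apart in villus bottom-rich squares, against 0.102% of genes lower in the KO-labelled section and 0.64% higher and 0.501% lower in the WT-labelled section. There Isg15 was at -0.46 in the KO-labelled section and 0.33 in the WT-labelled section. Usp18 (0.75, 0.49 to 0.997) and Ifit1bl1 (0.25, -0.10 to 0.59) were also above 0 in villus bottom-rich squares of the WT-labelled section. The tip list was cut at a share of 0.663% in the KO-labelled section and 0.0398% in the WT-labelled section. The values of the WT-labelled section therefore do not place these members along a villus.

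The sections were also set against each other within like-named squares. Irf1 was at least 2-fold higher in the KO-labelled section in all 5 kinds of square, at log2 ratios of 1.60 to 2.20. Ifitm3 (-5.02 to -1.99), Cxcl10 (-3.33 to -1.72), Bst2 (-2.93 to -1.83) and Ifit3 (-2.61 to -1.46) were at least 2-fold lower in all 5. Cxcl10 had only 12 to 21 counts per kind of square in the KO-labelled section and 38 to 65 in the WT-labelled section. Ifit3 had 50 and 124 counts in proliferating crypt-rich squares in the same order. These lie under the 200 counts asked of members elsewhere. The kinds of square overlap, and the share of all genes 2-fold apart in all 5 was not counted. Other members varied more. Ifi27l2b ranged over 0.89 to 2.18 and Psmb8 over 0.14 to 2.08, so neither was 2-fold higher in every kind of square. In villus-rich squares Ifitm3 had 11.7 CPM in the KO-labelled section, against 380.7 CPM in the WT-labelled section. Of the members measured there that reached 200 counts, 6 of 25 were at least 2-fold higher in the KO-labelled section in villus-rich squares (background 19.3%) and 5 of 25 at least 2-fold lower (background 27.6%). In proliferating crypt-rich squares 2 of 23 were higher (background 13.6%) and 11 of 23 lower (background 9.72%), with a median of -0.85 over the members with 20 or more counts beside 0.00 over all genes. In crypt base-rich squares 5 of 24 were higher (background 29.0%) and 6 lower (background 5.25%). In muscle-rich squares 4 of 23 were higher (background 22.5%) and 6 lower (background 6.39%), and in follicle-rich squares 2 of 24 were higher (background 17.7%) and 8 lower (background 14.4%). Macrophage markers in the proliferating crypt-rich squares summed to 202 CPM in the KO-labelled section and 622 CPM in the WT-labelled section, and neutrophil markers to 5.68 and 517 CPM. Their part in these ratios was not tested.

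Across larger tiles with a side of 100 position units, 92 in the KO-labelled section and 65 in the WT-labelled section, the members were compared with each other. For each member with 500 or more counts, its log2(CPM + 10) was correlated with the mean of the others. Of 26 members in the KO-labelled section, 19 had r of 0.5 or more, led by Oasl2 (0.92), Isg15 (0.91), Ifit1bl1 (0.86) and Oas1a (0.84). Of 10731 other genes with 500 or more counts there, 5.73% had r of 0.5 or more with the members' mean. Below 0 were Ifitm3 (-0.50), Ifi27 (-0.38), Gbp2 (-0.31) and Trim30a (-0.23). As for the WT-labelled section, 20 of 27 had r of 0.5 or more, led by Bst2 (0.81) and Isg15 (0.79), and Ifitm3 was at -0.08. There 17.5% of 8650 other genes had r of 0.5 or more, and their median r was 0.32, so positive values were common. The median over pairs of members was 0.42 for the 325 pairs in the KO-labelled section and 0.37 for the 351 pairs in the WT-labelled section. Tiles share a section, its depth and its tissue layout, so these are descriptions.

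The members' mean across tiles ran alike with several marker lists in both sections. Its correlation with enterocyte markers was 0.55 in the KO-labelled section and 0.45 in the WT-labelled section, and with pan-epithelial markers 0.75 and 0.36 in the same order. With Paneth cell markers it was -0.52 in the KO-labelled section and -0.69 in the WT-labelled section, and with muscle markers -0.52 and -0.41. Other lists gave unlike values. With goblet cell markers it was 0.68 in the KO-labelled section and -0.11 in the WT-labelled section, and with T and NK cell markers 0.66 and 0.21. With plasmacytoid dendritic cell markers it was -0.06 in the KO-labelled section and 0.67 in the WT-labelled section, and with proliferating crypt markers -0.33 and 0.58. Plasmacytoid dendritic cells are strong producers of type I interferon, but of that list Ly6d alone held 5058 of 8488 counts in the WT-labelled section, and it is not specific to these cells. The part of these cells in the pattern was not tested.

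Genes outside the list with the most similar pattern were then named. In the KO-labelled section, among 6030 genes, they were Parp12 (r = 0.83), Rtp4 (0.83), Ddx60 (0.83), Apol9a (0.82), Apol9b (0.81), Rnf213 (0.81), Rnf19b (0.80) and Misp (0.80). Parp12, Rtp4, Ddx60 and the Apol9 genes stand in the list of other interferon-stimulated genes used below. In the WT-labelled section, among 3091 genes, they were Rtp4 (0.81), Psma6 (0.80), Rpl36-ps2 (0.80), Med21 (0.79), Cnbd2 (0.79), Rpl36al (0.78), Rpl38-ps2 (0.78) and Gm5905 (0.78). Rtp4 alone is in both sets.

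**Figure D5:**
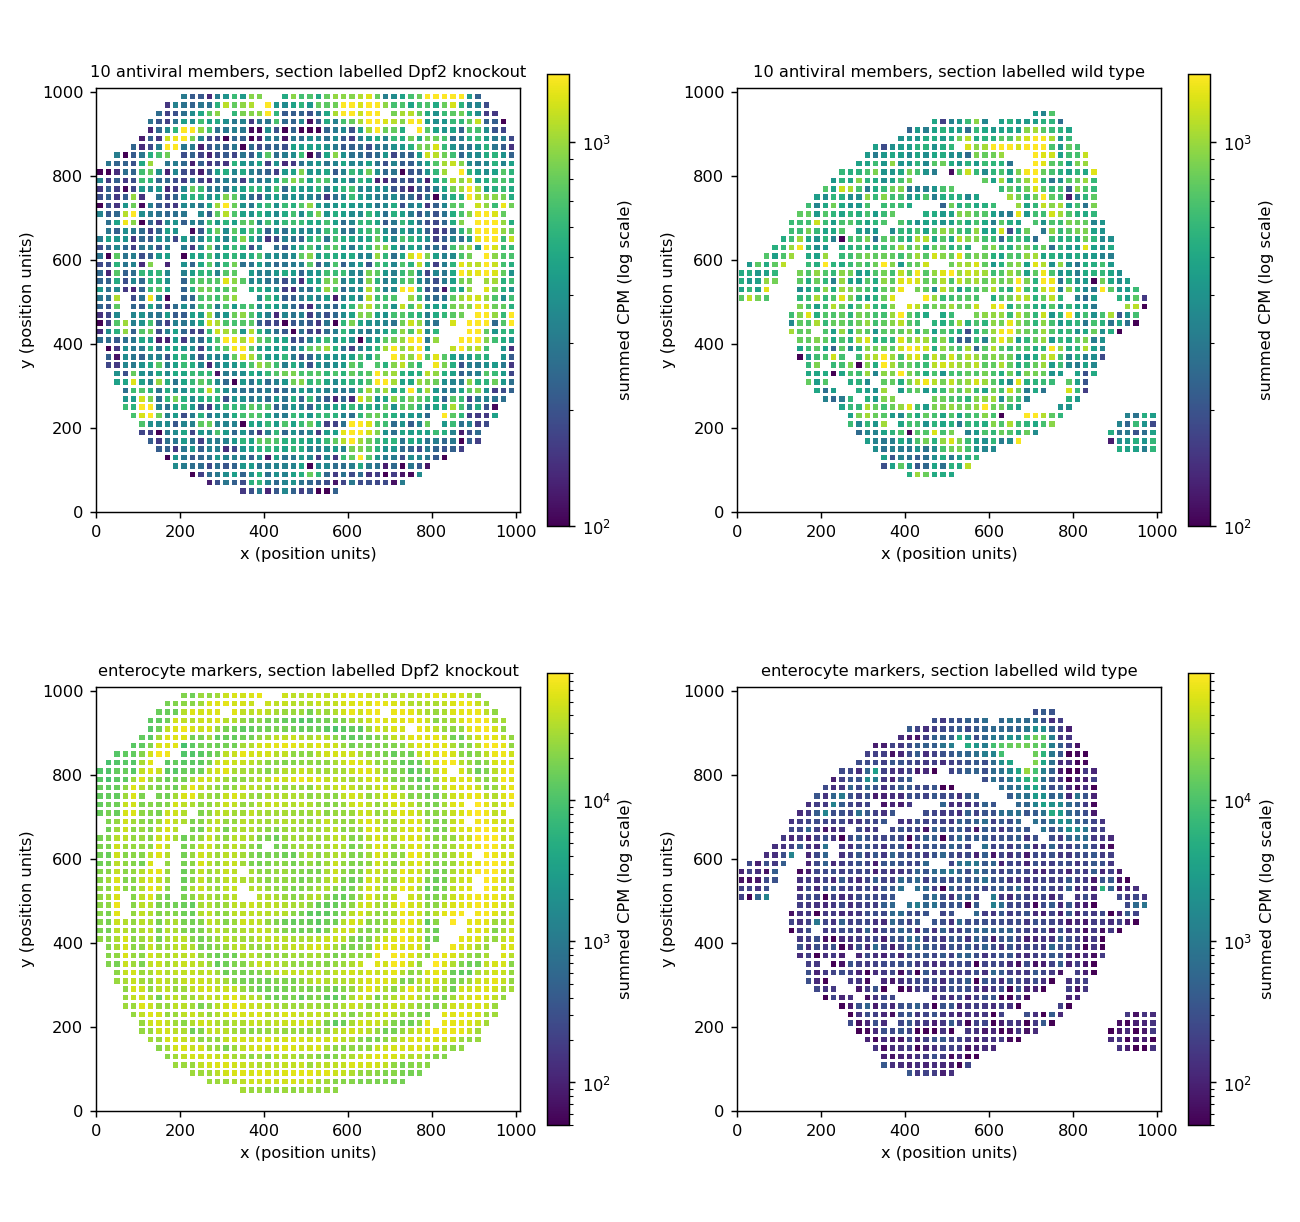
Summed CPM per square (log colour scale, values past its ends take the end colour) of 10 antiviral members (Isg15, Usp18, Ifit1, Ifit1bl1, Oasl1, Oasl2, Oas2, Oas3, Rsad2 and Irf7, top) and of the enterocyte markers (bottom), in the KO-labelled section (left) and the WT-labelled section (right). The 10 were picked after their values were seen, from members higher in villus-rich squares of the KO-labelled section, so that the 2 maps of that section run alike follows from the choice. Axes are array positions in position units. High squares form patches toward the right and top of the KO-labelled section, and are scattered in the WT-labelled section with a patch at the top right.

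The interferon genes named here were at or near 0 counts. They fall outside the naming rule and were picked after their values were seen. The Ifna genes on the list had 0 counts in both sections, which allows a level of up to 0.0334 CPM each in the KO-labelled section and 0.0753 CPM in the WT-labelled section. Ifnb1 had 1 count in the KO-labelled section and 7 in the WT-labelled section, a log2 ratio of -3.98 with a wide counting interval (-9.47 to -1.02). Ifng had 1 and 2, and Ifnl2 0 and 1 in the same order. A ratio on so few counts rests on single reads. Cytokines that raise interferon gamma were seen. Il18 had 90.1 CPM in the KO-labelled section and 5.07 CPM in the WT-labelled section (log2 ratio 4.15, 3.95 to 4.36), and Il15 had 30.9 and 3.11 CPM (3.31). Il27 had 0.591 CPM in the KO-labelled section and 4.82 CPM in the WT-labelled section (-3.03).

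The counts over whole sections that follow stand beside the shares given for all genes, 15.7% at least 2-fold higher and 19.7% lower in the KO-labelled section. Of the 6 receptor chains, 3 were at least 2-fold higher and none lower. They were Ifngr2 of the interferon gamma receptor (282.7 CPM in the KO-labelled section, 67.1 CPM in the WT-labelled section, log2 ratio 2.08) and both chains of the interferon lambda receptor, Il10rb (1.67) and Ifnlr1 (1.07). Among the kinases and signal transducers, Jak2, a kinase of the interferon gamma receptor, was at 1.91. Of the 12 inhibitors, Socs3 (-1.71), Ptpn1 (-1.44) and Trim24 (-1.07) were at least 2-fold lower and Irf2 (1.21) at least 2-fold higher. Socs3, which blocks cytokine receptors, was also the inhibitor most enriched in villus-rich squares of the KO-labelled section, with 90.5 CPM there and 35.7 CPM in the other squares.

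Genes of nucleic acid sensing differed in both directions. Of 19 genes that reached 200 counts, 4 lay 2-fold or more above in the KO-labelled section (15.7% of all genes), the adaptors Mavs (2.11) and Ticam1 (1.88) and the kinases Ikbke (1.29) and Tbk1 (1.08). At least 2-fold lower were 7 (19.7% of all genes), among them the DNA sensing genes Ifi204 (-2.91), Tmem173, which encodes STING (-2.80), Cgas (-1.52) and Aim2 (-1.37), and the factors Irf5 (-1.84) and Irf3 (-1.23). Cgas had 2.83 CPM in the KO-labelled section and 8.14 CPM in the WT-labelled section.

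Among 49 other genes of type I and III interferon that reached 200 counts, 6 lay 2-fold or more above in the KO-labelled section (15.7% of all genes) and 19 lower (19.7% of all genes). The median over those with 20 or more counts was -0.83, beside -0.18 over all genes that reached 200. Ifit1bl2 (4.25), Apol9a (2.16) and Trim30d (2.12) were highest. Ifitm1 (-4.45), Isg20 (-3.58), Phf11d (-3.42), Ifi213 (-3.38), Ifi209 (-3.07) and Slfn4 (-3.06) were lowest. In villus-rich squares of the KO-labelled section 7 of 43 of these genes were at least 2-fold higher, against 1.16% of all genes, and 7 were lower, against 21.6%. Their median was 0.56, beside -0.41 over all genes. The WT-labelled section had 1 of 46 higher, against 1.12% of all genes, with a median of 0.33 beside 0.07.

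Of 31 other genes of interferon gamma that reached 200 counts, 10 were at least 2-fold higher (15.7% of all genes) and 10 lower (19.7% of all genes). Partners in antigen processing differed from each other. Psme2, of the proteasome activator, was at 1.75 and Tap2, of the peptide transporter, at 1.62. Their partners Psme1 (0.12) and Tap1 (-0.11), named after their values were seen, were within 2-fold. Nlrc5, which activates MHC class I genes, was at -1.81. B2m, the light chain of MHC class I, had 2895 CPM in the KO-labelled section and 1355 CPM in the WT-labelled section (1.10). Ido1, a tryptophan-degrading enzyme (2.64), and the ubiquitin-like Ubd (2.52) were highest. The GTPases Gbp5 (-3.83), Tgtp1 (-3.08), Tgtp2 (-2.80) and Iigp1 (-2.41) were lowest. Macrophage and neutrophil markers, lower in the KO-labelled section by the sums given at the start, moved the same way as these GTPases, and their part was not tested.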

How the data were processed

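Sections of irradiated mouse intestine were measured by spatial transcriptomics. The deposited files hold, as the authors made them, whole-number counts per gene and barcode and barcode positions. Tissue spots were extracted with BSTMatrix and BSTViewer per the labels' protocols. The build GRCm38 is named in the submitters' processing notes. Aligner, counting tool, strand use and handling of molecular identifiers are not stated in the sources used here. Reads may not be independent molecules, so floors and intervals cover counting error only.

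Counts were summed per section, part, tile and square with Python 3.11.15, numpy 2.4.6 and pandas 2.3.3, and divided by the total to give CPM. Repeated symbols were added together. CPM carry exact Poisson intervals and ratios exact conditional binomial (Clopper-Pearson) intervals at 95% (scipy 1.17.1). A check on simulated data drew independent Poisson counts, the model that the intervals assume, so it could not show error of other kinds. A count of 0 allows 3 counts, given per section. Figures used matplotlib 3.10.9. With 1 section per genotype no test was made.

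Genes were named by rule: all 30 members, of each pathway list those at least 2-fold apart with 200 or more counts over both sections (at most 6 in each direction) and the 2 most abundant, and in each section the 8 genes with 2000 or more counts that correlate best with the members across tiles of 200 or more barcodes. Others are named as chosen after their values were seen. The members, lists and rules were chosen with earlier results of these data known. Alternatives covered the scaling, the barcodes used, the squares and the share of squares that defines a compartment.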

Additional observations from a re-analysis of the deposited data

Results flagged for a closer look

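The members' median enrichment had opposite signs in the 2 sections for 2 kinds of square. In proliferating crypt-rich squares the median log2 ratio to the other squares was -0.5868 in the KO-labelled section and 0.2651 in the WT-labelled section. In follicle-rich squares it was -0.2801 in the KO-labelled section and 0.305 in the WT-labelled section. Over all genes the medians were 0.225 and 0.2194 in proliferating crypt-rich squares, and 0.0357 and 0.0763 in follicle-rich squares, in the same order. The follicle-rich squares held 91.3 CPM of B cell markers in the KO-labelled section and 1158 CPM in the WT-labelled section. Their adipocyte markers summed to 3026 and 143 CPM in the same order, so like-named squares differ in make-up. With 1 section per genotype the difference between the sections was not tested.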

How the results depend on the processing

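The log2 ratio of the summed members, 0.04 as reported, was 0.2171 when scaled by the median of ratios and -0.0383 with the 100 most abundant genes left out of the total. It was 0.044 over barcodes with at least 300 counts and 0.0749 outside the squares richest in adipocyte or follicle markers. The 2 choices made after seeing the data gave 0.2024 without Trim30a and -0.3504 without Trim30a and Ifi27l2b. Scaling by the median of ratios adds 0.18 to every ratio, and the total without abundant genes subtracts 0.07. Under these 2 scalings 29 and 30 of the 30 members kept their sign (Trim30a did not under the first), and 11 of the 12 members at least 2-fold apart stayed so. Over all alternatives, 5 to 7 members were at least 2-fold higher and 5 to 7 lower. The median enrichment in follicle-rich squares of the KO-labelled section was -0.2071 over squares of 1 compartment only, and that in villus-rich squares of the WT-labelled section was 0.1858 against epithelial squares. One share cut for both sections leaves 0 crypt base-rich squares in the KO-labelled section and 0 villus-rich squares in the WT-labelled section, so it gave no value there. No paired analysis was possible because each genotype has 1 section and the labels carry no replicate numbers, and for the same reason no replicate could be left out. Members with few counts, such as Cxcl9 and Ifit2, are limited by depth.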
